A study of Mus musculus with 16 samples.

Results

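The neuronal intermediate filament genes of the mouse are Nefl, Nefm, Nefh, Ina and Prph, and these 5 genes, of 49671 Ensembl genes in the count tables, were followed in single cells of dorsal root ganglia (DRG) at embryonic day (e) 15.5 and postnatal day (p) 1. They were chosen by name. Cells were taken as sensory neurons when their well held at least 10000 unique molecular identifiers (UMIs, each marking 1 captured mRNA molecule) and at least 100 CPM (UMIs scaled to a total of 1000000) of Avil and Isl1 together, both sensory neuron genes. Of 1536 wells, 799 passed, 434 of 960 at e15.5 and 365 of 576 at p1. Of these, 694 were counted as proprioceptors, the neurons that report muscle stretch and tension, because at least 3 of Pvalb, Runx3, Etv1 and Ntrk3 had a UMI and the 4 summed to at least 1000 CPM. There were 339 proprioceptors at e15.5 and 355 at p1. The cut passed through few wells: 53 held the 4 markers at 500 to 1500 CPM, and 19 of those were counted as proprioceptors. Of the 434 wells that passed at e15.5, 33 fell in none of the classes used below and were rich in collagen genes. To pass thus does not by itself make a cell a sensory neuron.

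The e15.5 cells came from PvtdTom embryos, which carry a bacterial artificial chromosome that expresses tdTomato under the parvalbumin promoter, and were sorted by fluorescence (10 libraries). The p1 libraries (n = 6) share 1 label, Trpv1Cre; PvFlp; Ai65 and PvCre; Ai14. Ai65 makes tdTomato where Cre and Flp have both acted and Ai14 where Cre has acted. No label says which of the 2 lines, or which segmental level, a library holds. The labels describe a fluorescence sort for both ages, whereas the study's methods describe picking of p1 cells by hand and a longer digestion. Age therefore goes together with mouse line, digestion, isolation and library preparation, and these cannot be told apart in any difference between e15.5 and p1. The parvalbumin promoter is also active in some mechanoreceptors, so the reporter alone does not make a cell a proprioceptor. Libraries were the replicates. Nothing in the labels ties a library to separate animals. The study's methods describe thoracic and lumbar cells at both ages. At p1 they describe PvCre; Ai14 mice and 2 Trpv1Cre lines, each with PvFlp and Ai65. Libraries treated as replicates may therefore differ in segmental level and, at p1, in mouse line. The p-values measure the spread between these libraries, which may be technical or come from level and line.

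Intermediate filaments are rope-like polymers of coiled-coil proteins that fill the axon and set its calibre. In mature neurons Nefl (light), Nefm (medium) and Nefh (heavy) assemble together with Ina (alpha-internexin) or Prph (peripherin) into one filament, in which Nefl is the core subunit and the long tails of Nefm and Nefh project outward. Ina is known as an early subunit of developing neurons, Prph as the subunit of peripheral neurons and of small sensory neurons in particular, and Nefh as the subunit that is added late, in large myelinated neurons such as proprioceptors.

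The 5 genes are one family, and the part of the protein that holds them together ends in a nearly invariant motif. The coding sequence of that rod end is shown to let the shared part be seen beside the part in which the genes differ. Each line holds 39 bases, 5′ to 3′ on the coding strand, from GENCODE M21 transcripts on GRCm38, with capitals for the 27 positions at which all 5 genes have the same base.
Nefl: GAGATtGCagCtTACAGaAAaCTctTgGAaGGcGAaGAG
Nefm: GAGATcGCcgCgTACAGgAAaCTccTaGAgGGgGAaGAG
Nefh: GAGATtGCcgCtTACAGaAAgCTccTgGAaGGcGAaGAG
Ina: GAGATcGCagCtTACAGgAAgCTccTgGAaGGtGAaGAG
Prph: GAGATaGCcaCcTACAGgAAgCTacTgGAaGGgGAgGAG
The Nefl stretch lies on the plus strand at chr14:68086082-68086508 across the junction of coding exons 2 and 3, and that of Nefm on the minus strand at chr14:68121363-68122837, also across exons 2 and 3. The Nefh stretch crosses exons 3 and 4 at chr11:4941394-4943867 on the minus strand, the Ina stretch crosses exons 2 and 3 at chr19:47021941-47023356 on the plus strand, and the Prph stretch lies inside exon 5 at chr15:99057435-99057473 on the plus strand. Any pair of the 5 shared 29 to 36 of the 39 bases.

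The genes differ in what follows the rod. After its end the coding sequence runs on for 67 codons in Prph, 97 in Ina, 145 in Nefl, 441 in Nefm and 682 of 1090 in Nefh. The Nefh tail holds 51 Lys-Ser-Pro codon runs, the sites that are phosphorylated in mature axons, against 4 in the Nefm tail and 0 in the others. A stretch of 120 bases of the Nefh tail, in exon 4 at chr11:4940938-4941057 on the minus strand, shows 7 of these runs in capitals.
Nefh tail: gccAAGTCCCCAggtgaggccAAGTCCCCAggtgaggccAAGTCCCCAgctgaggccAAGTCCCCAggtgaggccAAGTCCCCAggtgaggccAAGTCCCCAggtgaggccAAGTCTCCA
Nefl and Nefm are neighbours. The annotated Nefm gene on the minus strand (chr14:68082590-68124846) spans the whole of Nefl on the plus strand (chr14:68083863-68089095), and the sources used here do not say whether the counting used strand. The other 3 genes lie on chromosomes 11 (Nefh), 19 (Ina) and 15 (Prph).

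Promoter sequence was at hand for Prph and Ina, the 2 members that fell with age (RefSeq, GRCm38.p6). The last 100 bases before the annotated start are shown for both, with the letters TATAAA, the core of a TATA box, in capitals.
Prph: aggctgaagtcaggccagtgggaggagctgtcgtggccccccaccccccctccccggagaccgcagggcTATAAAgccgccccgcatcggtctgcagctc
Ina: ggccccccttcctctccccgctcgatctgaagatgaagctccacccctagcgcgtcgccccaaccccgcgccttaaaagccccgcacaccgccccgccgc
The Prph stretch is chr15:99055074-99055173 and the Ina stretch chr19:47014581-47014680, both on the plus strand. In Prph the motif began 31 bases before the start, and Ina had no match in this stretch. TATAAA on either strand was present in 4473 of 32851 promoter windows of 300 bases (13.6%). A match is a match of letters only.

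A library held 3701900 to 9299431 UMIs at e15.5 and 386517 to 8814472 at p1. The median proprioceptor well held 111680 UMIs at e15.5 and 55969 at p1, and mitochondrial genes took a median of 5.10% and 10.6% of a well. A library gave 9 to 72 proprioceptors at e15.5 and 11 to 83 at p1, with p1 replicate 3 the smallest (11 wells). All 5 sensory neuron markers (Avil, Isl1, Tubb3, Snap25, Pou4f1) and all 4 proprioceptor markers had a UMI in at least 95.5% of wells at both ages, of which Avil, Isl1 and the 4 proprioceptor markers were used to choose the wells and Tubb3, Snap25 and Pou4f1 were not. The 7 glia genes together had 156 to 842 CPM per library at e15.5 and 139 to 606 at p1, the 5 connective tissue genes 23.5 to 615 and 98.3 to 262, and the 4 hemoglobin genes 4.62 to 113 and 3.53 to 789. Their part in the results below was not tested, except where wells rich in glia genes were left out.

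The first question was how much mRNA of each subunit proprioceptors hold at the 2 ages. Protein was not measured. The 3 neurofilament subunits were higher at p1 and Ina and Prph were lower, and no library of one age overlapped the other for any of the 5 genes. The share of all genes without such overlap is not given here. With 30.6% of all tested genes called higher at p1 and 32.1% lower, the lack of overlap is no mark of these 5 genes. Nefh moved most, 10.2-fold in the mean of the libraries, against 1.61-fold for Nefl and 1.94-fold for Nefm. Ina was 1.67-fold and Prph 1.998-fold higher at e15.5 than at p1. Values per library are CPM of the UMIs summed over its proprioceptors. UMIs of 3′ tags count molecules whatever their length, so these levels can be set beside each other, within the limit that repeated tags set for the highest counts (below).

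Nefl, the core subunit, had 5155 CPM in the lowest e15.5 library, 6853 in the median and 7796 in the highest (mean 6687 ± 1034.5 SD, n = 10). At p1 it had 7873, 10973 and 13741 CPM (10744 ± 2318, n = 6). The gap between the groups was narrow, 7796 against 7873 CPM. The fitted difference was a log2 fold change of 0.92 (SE 0.14, edgeR quasi-likelihood adjusted p = 8.7e-06).

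Nefm, which partners Nefl and carries the first long tail, had 3773, 5528 and 6379 CPM in the lowest, median and highest e15.5 library (5259 ± 981, n = 10). At p1 it had 6818, 9897 and 14146 CPM (10194 ± 3025, n = 6). The log2 fold change was 1.19 (SE 0.17, edgeR adjusted p = 4.0e-06). Among the p1 libraries, replicates 2, 4 and 5 were the 3 highest for both Nefl and Nefm, while replicates 1 and 6 were the 2 lowest for both.

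Nefh, the heavy subunit, had 132, 221 and 350 CPM at e15.5 (224 ± 58.9, n = 10) and 1857, 2333 and 2604 CPM at p1 (2275 ± 316, n = 6). Every p1 library lay far above every e15.5 library. The log2 fold change was 3.58 (SE 0.16, edgeR adjusted p = 3.3e-13). The highest e15.5 value, in replicate 2, came mostly from 1 well with 529 Nefh UMIs and 4120 CPM, and without it that library had 162 CPM. The well held 257 Etv1 and 51 Pvalb UMIs but 1 Runx3 UMI and 6 Ntrk3 UMIs, and 5 of 6 mechanoreceptor genes, among them 161 UMIs of Maf.

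Ina had 1167, 1458 and 1630 CPM at e15.5 (1412 ± 139, n = 10) and 717, 825 and 1020 CPM at p1 (847 ± 101, n = 6). Its log2 fold change was −0.51 (SE 0.091, edgeR adjusted p = 6.8e-05). Prph had 1505, 1717 and 1984 CPM at e15.5 (1748 ± 147, n = 10) and 716, 895 and 986 CPM at p1 (875 ± 105, n = 6). It fell by 0.78 on the log2 scale (SE 0.088, edgeR adjusted p = 2.5e-07). The embryonic libraries were high for both genes and the p1 libraries low.

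**Figure D1:**
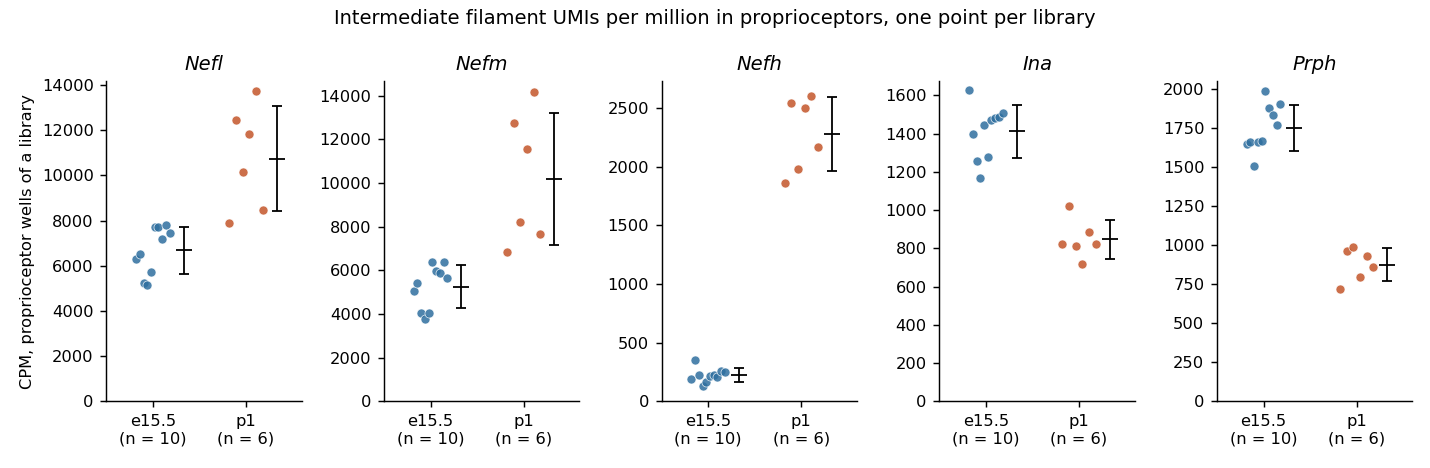
Level of each of the 5 genes in CPM (linear axes from 0, 1 panel per gene) in proprioceptors, 1 point per library, at e15.5 (n = 10) and p1 (n = 6), with the mean and SD beside the points. No library of one age reaches the other for any gene, and Nefh has the widest gap, 132 to 350 CPM against 1857 to 2604.

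These counts stand against a large background. Of 13915 genes tested, 30.6% were called higher at p1 and 32.1% lower, so a call in this comparison is no mark of these 5 genes. Scaling by library totals in place of TMM moved the median log2 fold change of all genes from −0.03 to −0.26 and the split of calls from 4254 higher and 4461 lower to 3064 higher and 6071 lower. The 5 genes kept their direction under it, at 0.69 for Nefl, 0.96 for Nefm, 3.35 for Nefh, −0.73 for Ina and −1.003 for Prph.

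The order of the 5 genes changed with age. At e15.5 it was Nefl, Nefm, Prph, Ina and Nefh, and each gene was above the next in 10 of 10 libraries. At p1 Nefh stood above Ina and Prph in 6 of 6 libraries. There Nefl was above Nefm in 4 of 6 libraries and Prph above Ina in 4 of 6, so neither of these pairs of neighbours was ordered beyond its spread. Among 21721 nuclear protein-coding genes Nefl and Nefm ranked 2 and 3 at e15.5 and 1 and 2 at p1, and Nefh went from rank 605 to rank 13. Prph went from 23 to 70 and Ina from 32 to 66. The 5 genes together took 1.53% ± 0.222 of all UMIs at e15.5 (n = 10, 1.19 to 1.77) and 2.49% ± 0.570 at p1 (n = 6, 1.81 to 3.23).

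The second question was the composition of the mRNA pool of the 5 genes, which need not be that of the filaments. The share of each subunit among the UMIs of all 5 needs no total of other genes. Nefm and Nefh took a larger part of the pool at p1 and Ina and Prph a smaller one, while the share of Nefl differed by less than its spread between libraries. Nefl made up 43.6% ± 0.796 at e15.5 and 43.2% ± 1.39 at p1, a difference of −0.368 percentage points (two-sided exact permutation test, p = 0.518). Without p1 replicate 3 that difference was −0.886 points (exact adjusted p = 0.04995), so its call depends on the smallest library.

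Nefm rose from 34.1% ± 1.77 (31.0 to 36.2) to 40.4% ± 2.94 (37.1 to 43.8). Nefh rose from 1.46% ± 0.353 (1.11 to 2.28) to 9.30% ± 1.06 (8.06 to 10.9). Ina fell from 9.33% ± 1.19 (7.27 to 11.1) to 3.52% ± 0.762 (2.62 to 4.56), and Prph from 11.5% ± 1.13 (9.997 to 13.9) to 3.62% ± 0.709 (2.87 to 4.45). For these 4 subunits no library overlapped the other age, and each had the exact permutation p = 0.00025, the smallest that 10 against 6 libraries allow (adjusted p = 0.000321 over 9 tests of shares and ratios).

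**Figure D2:**
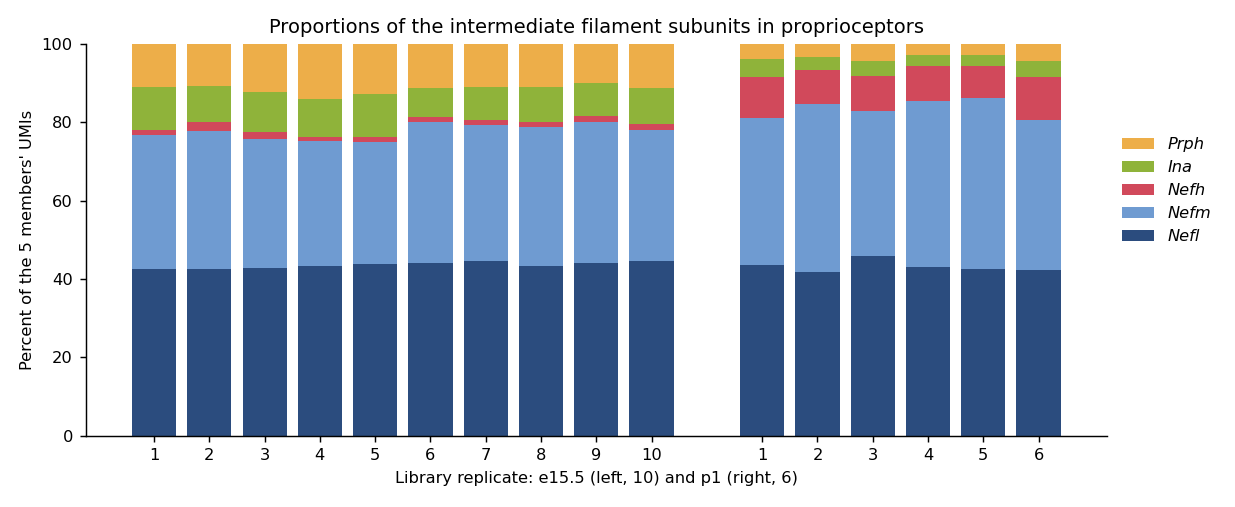
Composition of the intermediate filament mRNA pool, 1 bar per library, as percent of the UMIs of the 5 genes together in proprioceptors. Nefl stays between 41.9 and 45.8% in all 16 libraries, the Nefh band widens from 1.11 to 2.28% at e15.5 to 8.06 to 10.9% at p1, and the Ina and Prph bands narrow.

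Set against Nefl the mRNA ratios moved in the same way. For every 100 Nefl UMIs there were 78.3 Nefm, 26.5 Prph, 21.5 Ina and 3.36 Nefh at e15.5, and 93.6 Nefm, 21.6 Nefh, 8.37 Prph and 8.16 Ina at p1. These ratios are not corrected for repeated tags. The log2 ratio to Nefl differed by 2.71 for Nefh, −1.41 for Ina and −1.67 for Prph (each exact adjusted p = 0.000321). For Nefm it differed by 0.25 (exact adjusted p = 0.0014), far less than for the other 3.

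The change in Nefh was seen across nearly all wells. For every 100 Nefl UMIs the median e15.5 well held 2.58 Nefh UMIs (5th to 95th percentile 0.542 to 5.95) and the median p1 well 20.6 (10.3 to 32.4). Of 339 wells at e15.5, 3 lay above the 5th percentile of p1, and of 355 wells at p1, 2 lay below the 95th percentile of e15.5. All p1 wells held Nefh UMIs, and 8 of the e15.5 wells held none. Prph to Nefl overlapped more, with medians of 23.6 (13.7 to 38.5) at e15.5 and 5.78 (1.48 to 17.5) at p1.

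At p1 the levels moved with the depth of a well, and the size of the change in Nefl and Nefm with it. In p1 wells of 10000 to 50000, 50000 to 100000 and at least 100000 UMIs the median level of Nefl was 14523, 10119 and 8074 CPM and that of Nefm 16451, 10418 and 6821 CPM. Nefh fell less steeply across these wells, from 2690 to 2190 and 1924 CPM. Ina and Prph went the other way, Ina from 556 to 805 and 888 CPM and Prph from 576 to 642 and 876 CPM. The shallow p1 wells were also those with the most mitochondrial counts, 14.9% at the median against 9.89 and 6.89%.

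At e15.5 the same depths gave 7883, 7155 and 6739 CPM of Nefl, and 160, 157 and 212 CPM of Nefh. In the deepest wells the 2 ages were thus closer for Nefl and Nefm, at 8074 against 6739 CPM and 6821 against 5220 CPM, and still far apart for Nefh, at 1924 against 212 CPM. With wells of at least 100000 UMIs alone (10 and 5 libraries) the log2 fold changes were 0.56 for Nefl, 0.71 for Nefm, 3.31 for Nefh, −0.44 for Ina and −0.66 for Prph, all with an edgeR adjusted p of 0.0014 or less. In these wells the share of Nefm rose by 3.31 percentage points rather than 6.24 (exact adjusted p = 0.0077). With counts corrected for repeated tags (below), median Nefl by depth was 15527, 10973 and 9964 CPM at p1 and 8070, 7601 and 7859 CPM at e15.5. The deepest wells then stood at 9964 against 7859 CPM for Nefl and 7797 against 5800 CPM for Nefm. The part of cell size and RNA loss in the change with depth was not tested.

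**Figure D3:**
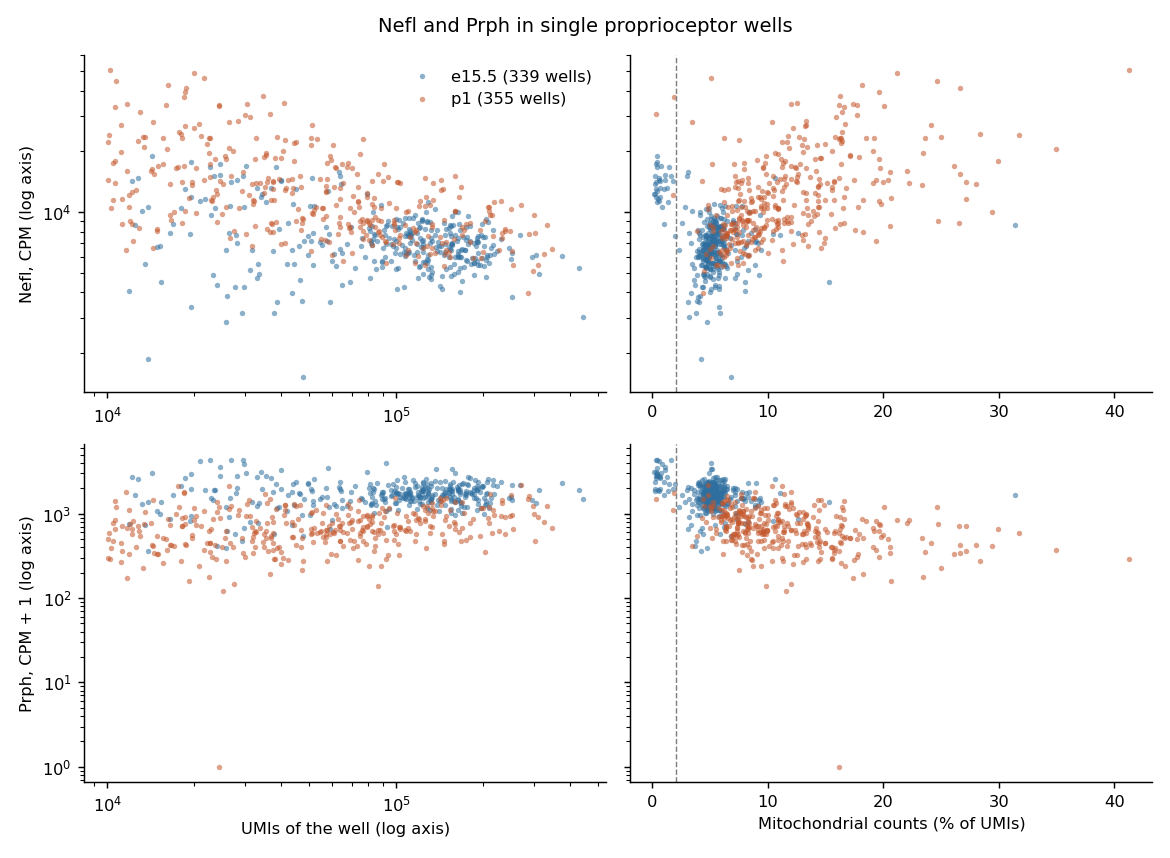
Level of Nefl (CPM) and Prph (CPM + 1), both on log axes, in single proprioceptor wells against the UMIs of the well (log axis, left) and its mitochondrial counts in percent (right), for 339 wells at e15.5 and 355 at p1. The dashed line marks 2% mitochondrial counts, left of which lies a group of e15.5 wells with high Nefl, and at p1 shallow wells have high Nefl and low Prph.

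**Figure D4:**
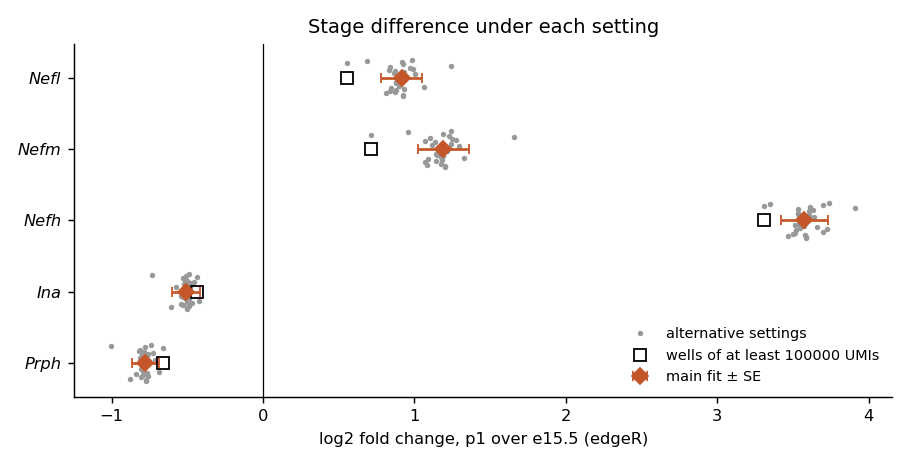
Log2 fold change of the 5 genes between p1 and e15.5 proprioceptors (edgeR), with the reported fit and its standard error (diamonds), 33 alternative settings (dots) and the fit on wells of at least 100000 UMIs (squares). All values lie on 1 side of 0 for each gene, and the squares for Nefl (0.56) and Nefm (0.71) stand below the reported 0.92 and 1.19.

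Nefl and Nefm were counted in such numbers that the UMIs themselves limit the counts. No gene in any well passed 4079 UMIs, close to the 4096 different tags that 6 bases give, although the sources used here do not state the length of the UMI. The highest well counts were 2945 for Nefl and 3064 for Nefm. If tags of 6 bases were drawn with equal chance, the molecules missed by repeated tags would add 16.03% to Nefl at e15.5 and 20.7% at p1, 13.3 and 18.9% to Nefm, and 0.775 and 3.91% to Nefh. They would add 2.85 and 1.91% to Ina and 3.83 and 2.07% to Prph. The counts would then understate Nefl and Nefm relative to Nefh, Ina and Prph. Counts corrected in this way moved the differences in share between ages by less than 1 percentage point.

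A group of 32 e15.5 wells had under 2% mitochondrial counts (median 0.572%, 31637 UMIs), with 3 wells between 2 and 3%. They lay in 8 libraries, 10 of them in replicate 7, 8 in replicate 8 and 6 in replicate 6. Their median levels were 13451 CPM of Nefl against 6772 in the other 307 wells, 9244 against 5044 of Nefm, 353 against 176 of Nefh and 2750 against 1669 of Prph. Ina stood at 1485 against 1450 CPM. Within replicates 6, 7 and 8 the ratio of medians for Nefl was 2.18, 1.995 and 1.97, and for Ina 1.59, 0.956 and 1.03. At p1 there were 3 such wells. Without the wells under 2% the log2 fold changes between ages were 0.98 for Nefl, 1.24 for Nefm, 3.74 for Nefh, −0.49 for Ina and −0.74 for Prph.

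The next comparison set proprioceptors beside the other wells of the same e15.5 sort that passed as sensory neurons. With all of these wells, Nefl, Nefm and Ina were higher in proprioceptors and Prph and Nefh did not pass the test. Without the 33 unclassed wells, which were rich in collagen genes, Ina alone was called higher and Prph was called lower, as given below. The others were 46 nociceptor-like wells (at least 3 of 6 nociceptor genes, among them Scn10a, Scn11a and Calca), 16 mechanoreceptor-like wells (at least 3 of Maf, Ntrk2, Ret, Mafa, Shox2 and Gfra2, of which Mafa was at 0 in all proprioceptors) and 33 unclassed wells. The reported fit took class alone and did not pair sums from the same library. Over sums per library (10 and 9) the log2 fold change was 1.03 for Nefl (SE 0.33, edgeR adjusted p = 0.020), 1.04 for Nefm (SE 0.36, edgeR adjusted p = 0.031) and 1.05 for Ina (SE 0.26, edgeR adjusted p = 0.0037). It was 0.57 for Nefh (edgeR adjusted p = 0.21) and −0.06 for Prph (edgeR adjusted p = 0.91). Of 11266 genes, 16% were called higher in proprioceptors and 18.4% lower.

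The unclassed wells carried part of this. They held 22351 CPM of collagen genes, 438 CPM of Nefl and 114 CPM of Prph, near the connective tissue wells of the same libraries (368 wells with 30747 CPM of collagens), in which the 5 genes had 171 CPM of Nefl, 150 of Nefm, 71.1 of Ina, 45.4 of Prph and 4.79 of Nefh. A Nefl UMI was found in 95.1% of those connective tissue wells at a median depth of 28177 UMIs. Without the unclassed wells Nefl differed by 0.66 (edgeR adjusted p = 0.054) and Nefm by 0.56 (edgeR adjusted p = 0.23), while Ina differed by 0.78 (edgeR adjusted p = 0.00050) and Prph by −0.37 (edgeR adjusted p = 0.020). With at least 300 CPM of Avil and Isl1 required, Ina differed by 0.52 (edgeR adjusted p = 0.0057). Without replicate 1, 2, 3 or 4 in turn Nefm no longer passed (edgeR adjusted p 0.052 to 0.075).

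Against nociceptor-like wells alone, Ina was higher by 0.80 (edgeR adjusted p = 0.0014) and Prph lower, at −0.45 (edgeR adjusted p = 0.028). Nefl (0.63, edgeR adjusted p = 0.065) and Nefm (0.59, edgeR adjusted p = 0.21) did not pass. Against mechanoreceptor-like wells alone Ina did not pass either (0.62, edgeR adjusted p = 0.072). Summed over the wells of a class, nociceptor-like wells had 3915 CPM of Nefl, 2844 of Nefm, 194 of Nefh, 821 of Ina and 2360 of Prph, and mechanoreceptor-like wells 3501, 2575, 126, 961 and 2193 CPM in the same order. Proprioceptors taken the same way had 6956 CPM of Nefl and 1776 of Prph. The glia genes summed to 503 CPM in nociceptor-like and 1889 CPM in mechanoreceptor-like wells, against 354 in proprioceptors, and their part in the difference was not tested.

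At p1 there were 3 nociceptor-like and 7 mechanoreceptor-like wells, too few for a test. They had 15335 and 14373 CPM of Nefl, 17631 and 20475 of Nefm, 3596 and 4587 of Nefh, 257 and 187 of Ina and 2039 and 1340 of Prph. In both, Nefh was above Prph, as it was in the proprioceptors of that age.

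The study names Tox as a marker of proprioceptors of back muscles and Gabrg1 of those of hindlimb muscles, and these 2 genes were used to set apart wells with at least 50 CPM of one and less of the other. In the shallowest wells 1 UMI is enough to reach 50 CPM, so the label depends on depth. The Tox-high wells of p1 replicate 3, for example, had a median of 12171 UMIs. At e15.5, 4 of the 5 filament genes were higher in Gabrg1-high than in Tox-high proprioceptors and Ina was not. The Gabrg1-high wells (25 wells in 3 sums of at least 5) had 9426 ± 1960 CPM of Nefl against 5903 ± 611 in 6 sums of Tox-high wells (89 wells). Nefm stood at 7636 ± 932 against 4318 ± 530 CPM, Nefh at 315 ± 43.6 against 165 ± 12.9 and Prph at 2426 ± 293 against 1596 ± 132. No sum of one kind overlapped the other for these 4 genes, whereas for Ina they lay together, at 1492 ± 98.2 and 1548 ± 90.8 CPM. The share of all genes without such overlap is not given here. Kind and library go partly together. The Gabrg1-high sums came from replicates 7, 8 and 9, and the Tox-high sums from replicates 1, 2, 5, 8, 9 and 10. Replicates 1 to 5 held 0 Gabrg1-high wells. Over all their proprioceptors Nefl was at 5155 to 6534 CPM, against 7172 to 7796 CPM in replicates 6 to 10. The part of the library was not tested beyond the block below.

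The log2 fold changes were 0.69 for Nefl (SE 0.13, edgeR adjusted p = 0.0051), 0.84 for Nefm (SE 0.13, edgeR adjusted p = 0.00063), 0.94 for Nefh (SE 0.12, edgeR adjusted p = 0.00012) and 0.62 for Prph (SE 0.11, edgeR adjusted p = 0.0025). For Ina it was −0.03 (edgeR adjusted p = 0.94). Of 11287 genes, 5.26% were called in either direction (594 genes, and 247 without replicate 8). With the library as a block, which rests on the 2 libraries that hold both kinds (replicates 8 and 9), the difference in Nefl was 0.38 (edgeR adjusted p = 0.0040) and that in Nefm 0.56 (edgeR adjusted p = 6.4e-05). With so few libraries these p-values lean on variance estimated over all genes and hardly measure the spread between libraries. With the gate at 100 CPM and no block the difference in Nefl was 0.40 (edgeR adjusted p = 0.042). In sums of at least 10 wells, which leave 1 Gabrg1-high library (replicate 9) against 4 and assume that it varies like the others, Nefl stood at 0.53 (edgeR adjusted p = 0.076) and Prph at 0.46 (edgeR adjusted p = 0.13). The Gabrg1-high sum of replicate 7 came from wells with 0.489% mitochondrial counts and had the highest Nefl, 11680 CPM. Without all wells under 2% mitochondrial counts the differences were 0.54 for Nefl (edgeR adjusted p = 0.012), 0.77 for Nefm (edgeR adjusted p = 0.0016), 0.90 for Nefh (edgeR adjusted p = 0.00060) and 0.54 for Prph (edgeR adjusted p = 0.0047). Glia genes moved the other way, 74.8 CPM in Gabrg1-high against 521 in Tox-high sums (15.9 to 187 and 178 to 987), and their part was not tested at e15.5 beyond leaving out wells rich in them, which ended no call.

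At p1 none of the 5 genes passed the test over all genes in the reported fit. Nefl had 12425 ± 2406 CPM in 4 Gabrg1-high sums (64 wells) and 8154 ± 788 in 5 Tox-high sums (104 wells), without overlap (9446 to 15338 against 7136 to 9100). How large a share of all genes lacks such overlap is not given here. The log2 fold change of Nefl was 0.69 (SE 0.18, edgeR adjusted p = 0.11). Nefm had 12225 ± 3182 and 7167 ± 1109 CPM (0.86, SE 0.20, edgeR adjusted p = 0.071), and Nefh 2499 ± 586 and 1906 ± 183 CPM (0.47, edgeR adjusted p = 0.37). Ina (993 ± 149 and 818 ± 110 CPM) and Prph (981 ± 319 and 891 ± 82.9 CPM) had an edgeR adjusted p of 0.52 and 0.94. Glia genes summed to 272 CPM in Gabrg1-high and 377 CPM in Tox-high sums. Without wells that held 200 CPM or more of glia genes, Nefl (1.18, edgeR adjusted p = 0.0088), Nefm (1.42, edgeR adjusted p = 0.0034) and Nefh (0.86, edgeR adjusted p = 0.032) passed, and without replicate 1 Nefm passed (0.94, edgeR adjusted p = 0.035).

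Of 9790 genes, 0.991% were called at p1, and with the library as a block, which rests on the 3 libraries that hold both kinds, 2 genes were called in place of 97. p1 replicate 2 gave 41 of the Gabrg1-high wells, and without it 29 genes were called, against 42 without replicate 5, 46 without replicate 6 and 202 without replicate 1. The differences at the 2 ages did not pass a test of their own difference. The interaction was 0.02 for Nefl, 0.03 for Nefm, −0.45 for Nefh, 0.43 for Ina and −0.36 for Prph, with edgeR adjusted p between 0.45 and 1.0, and 0.723% of 11902 genes were called.

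Whether the subunits vary together from neuron to neuron was described within libraries, over log2(CPM + 10) of wells. Nefl and Nefm went together at both ages, with a median r of 0.88 over 9 e15.5 libraries (330 wells) and 0.89 over 6 p1 libraries (355 wells). Nefh went with Nefl less closely, at 0.49 and 0.61. At e15.5 this median was 0.23 without wells under 2% mitochondrial counts (8 libraries) and 0.31 over wells of at least 100000 UMIs (7 libraries). Prph changed sides. Its r with Nefl was 0.53 at e15.5, above 0 in 9 of 9 libraries, and −0.31 at p1, below 0 in 6 of 6 libraries. With Nefm it was 0.47 and −0.50, and with Nefh 0.49 and −0.24. Ina did likewise with Nefl (0.38 and −0.26), although in 1 of the p1 libraries it stayed above 0.

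These wells share their library and their depth. At p1 the r of Nefl with the UMIs of the well was −0.59 and with the mitochondrial share 0.47 at the median, and that of Prph 0.47 and −0.40. Over wells of at least 100000 UMIs the r of Nefl and Prph was 0.15 at e15.5 (7 libraries, 2 below 0) and −0.24 at p1 (4 libraries, 4 below 0), and that of Nefl and Ina was 0.23 and 0.30. With every well thinned to 10000 UMIs the r of Nefl and Prph was 0.48 and −0.25.

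**Figure D5:**
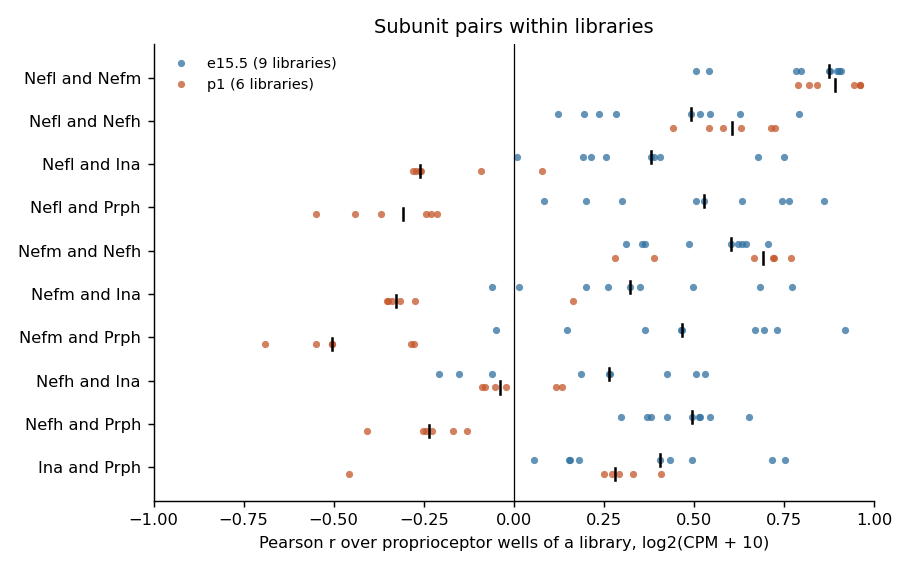
Pearson's r over wells of log2(CPM + 10) for each pair of the 5 genes, 1 point per library of at least 10 proprioceptors, at e15.5 (n = 9) and p1 (n = 6), with the median as a bar. Nefl and Nefm lie near 0.88 and 0.89 at the median, and the pairs of Prph with Nefl and with Nefh stand above 0 in all e15.5 libraries and below 0 in all p1 libraries.

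Of 4281 genes compared in thinned e15.5 wells, the pattern most like Nefl was that of Nefm (median r 0.81), followed by Tubb2a, a tubulin (0.52), and Uchl1, an abundant neuronal ubiquitin hydrolase (0.49). At p1 the r of Nefl was 0.90 with Nefm, −0.45 with Tubb2a and −0.36 with Uchl1. All these genes were picked for the highest r at e15.5, which by itself favours a lower r at p1. In the thinned p1 wells the median r of Nefl was still −0.59 with the UMIs of the well and 0.45 with the mitochondrial share. Those of Nefm were −0.58 and 0.57. The part of depth in the changes of sign was not tested. For Nefm the nearest after Nefl were Map1b, which binds microtubules of the growing axon (0.59 at e15.5, 0.85 at p1), and the tubulin Tuba1a (0.46 and −0.54). Nefh had lower r with its nearest genes, Tubb2a (0.44 and −0.19), Sult4a1 (0.39 and 0.04) and Atp5a1 (0.36 and −0.19). At 231 CPM, a thinned e15.5 well keeps few Nefh UMIs, which limits any r of Nefh. The median r of Nefm and Nefh at e15.5 was 0.60 in all wells and 0.35 in thinned wells. The part of low counts in the lower r was not tested. Ina had Map1b (0.40 and −0.18), the transcription factor Etv1 (0.38 and 0.23) and the microtubule protein Mapt (0.38 and 0.04). Prph had Stmn2 (0.59 and 0.24), Uchl1 (0.52 and 0.37) and Tubb3 (0.49 and 0.29), which kept a positive median at p1.

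The genes around the filaments changed between ages to different degrees. Of 10 other intermediate filament genes, 6 passed the filter on low counts, of which 1 was higher at p1 and 3 were lower (median log2 fold change −0.32, against −0.03 over all genes), where 30.6% of all genes were higher and 32.1% lower. Vim, the filament of precursors and glia, had 202.0 CPM at e15.5 and 91.9 at p1 (−0.98, edgeR adjusted p = 0.00018). Nes, the filament of neural stem cells, was near absent at both ages, at 3.45 and 4.77 CPM (0.65, edgeR adjusted p = 0.18). The nuclear lamins Lmnb1 (−1.58) and Lmnb2 (−0.73) fell, and Lmna (0.50, edgeR adjusted p = 0.0038) was higher, a call that was lost with scaling by library totals (0.28, edgeR adjusted p = 0.096).

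Of 16 genes that handle neurofilaments, 11 were higher and 3 lower (median 0.32), where 30.6% of all genes were higher and 32.1% lower, and with scaling by library totals 7 were higher and 3 lower. The plakin linkers Plec and Dst, which tie filaments to microtubules and actin, rose by 1.09 each (edgeR adjusted p = 1.9e-08 and 2.2e-08). The kinesin heavy chains Kif5b (0.70) and Kif5a (0.65) rose, and Kif5c fell by 0.29. Fbxo2, a ubiquitin ligase subunit, rose by 1.29 and the kinase Gsk3b by 0.80. Tardbp, an RNA-binding protein that binds Nefl mRNA, fell by 0.44. The genes named here kept their call when library totals were the only scaling.

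Of 14 microtubule and actin partners, 5 were higher and 7 lower under both scalings (median −0.14, and −0.36 with scaling by library totals), beside 30.6% and 32.1% of all genes. Map1a, the microtubule protein of mature neurons, rose from 489 to 2458 CPM (2.64, edgeR adjusted p = 1.5e-11), Map1b rose by 1.20 and Sptbn1, a spectrin of the axon cortex, by 0.74. Stmn1, which destabilises microtubules, fell by 2.08, the tubulin Tuba1a by 0.85 and the growth cone protein Gap43 by 0.84. Among the 5 sensory neuron markers, 1 was higher at p1 (Snap25, 1.70) and 3 were lower, with Avil at −0.82 and Isl1 at −0.85, the 2 genes used to admit wells.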

How the data were processed

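Members and gene lists were chosen with earlier results of these data known. The authors prepared CEL-Seq2 libraries and deposited UMI counts per gene and well, made with the R package scruff. The genome builds named in the submitters' processing notes are mm10 and GRCm38. IDs were matched to GENCODE M21 (49326 of 49671). Wells are numbered, not barcoded, in the deposited tables, so barcodes shared between libraries were not counted, and no library repeats another. Doublets were not removed.

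Counts were summed per library and class (at least 5 wells) in Python 3.11.15 and tested with edgeR 4.0.16 (R 4.3.3): filterByExpr, TMM, quasi-likelihood F test, Benjamini-Hochberg over all tested genes, threshold 0.05. Two-sided exact permutation tests over libraries were used for shares and ratios, adjusted over the 9 tests. On counts simulated for each comparison, with 200 genes changed 4-fold, 96% of changed genes were recovered for age (13690 genes), 91.5% for class (11014), 94% and 92.5% for subtypes at e15.5 (11006) and p1 (9471), and 79.5% for the interaction (11458). Of the calls, 3.03, 3.17, 6.47, 2.63 and 7.56% were false in the same order. In the data 30.6% of genes were called higher at p1 and 32.1% lower, and of the 5 members only Nefh differed more than 4-fold between ages. The simulation therefore does not give the power of the reported fits. All 5 members were always named. Of each list up to 6 called genes with the smallest p, and Vim and Nes always, were named; Kif5c, Tardbp, Avil, Isl1 and Snap25 were added after their values were seen. Some genes of the lists are not reported here. Alternatives were DESeq2 1.42.0, other scaling, filters, gates, depth floors, thinned wells, the replicate block and each library left out. Depth per well, not per library alone, limits the precision of Nefh at e15.5.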

Additional observations from a re-analysis of the deposited data

Results flagged for a closer look

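The relation of Prph to the neurofilament subunits across neurons took opposite signs at the 2 ages. Within libraries the median r of Nefl and Prph was 0.528 at e15.5, with all 9 libraries above 0, and −0.307 at p1, with all 6 below 0. For Nefh and Prph it was 0.495 at e15.5, all 9 above 0, and −0.235 at p1, all 6 below 0. What drew attention was that every library of one age lay on one side and every library of the other age on the other side, in 2 of the 10 pairs of members. The difference was not tested. At p1 Nefl was higher and Prph lower in shallow wells, as the values by depth show, and in wells of at least 100000 UMIs 2 of the 7 e15.5 libraries were below 0 for Nefl and Prph. For Nefh and Prph, 1 of the 7 e15.5 libraries was below 0 and 1 of the 4 p1 libraries above 0 in those wells. With wells thinned to 10000 UMIs, 1 e15.5 library was below 0 for Nefl and Prph (−0.118). The separation of all libraries by sign thus did not hold for either pair in deep wells, nor for Nefl and Prph in thinned wells. Of 43 groups of library values looked at for a sample far from the rest, 0 had one, where chance alone gives about 1 in 20.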

How the results depend on the processing

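The change between ages kept its direction and its call for all 5 genes under all 33 alternatives (165 values), at 0.56 to 1.24 for Nefl, 0.71 to 1.66 for Nefm, 3.31 to 3.91 for Nefh, −0.73 to −0.42 for Ina and −1.003 to −0.66 for Prph, and in wells thinned to 10000 UMIs 4165 genes were called in place of 8715. Replicate numbers are shared by the ages. The deviations of same-numbered libraries had r of either sign (−0.23, −0.19, −0.28, 0.28, −0.28 and 0.30 over 2000 genes). Values for libraries with different numbers are not given, so these r do not settle whether the numbers pair libraries. With the replicate block the Nefl share differed by 0.014 points, and the class difference in Prph was 0.091 and the e15.5 subtype difference in Ina 0.021, both with the library as the block. The difference in the Nefl share was −1.02 points with a floor of 20000 UMIs (exact adjusted p = 0.021), 0.087 with 300 CPM of Avil and Isl1, and −0.886 to −0.106 with 1 library left out.

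Against other neurons, 2528 genes were called with the 300 CPM gate and 1584 against mechanoreceptor-like wells alone. Nefl was 0.63 against nociceptor-like wells alone and 0.66 without the unclassed wells. Nefm was 0.59 and 0.56 in these, 0.53 against mechanoreceptor-like wells, and 0.85 to 1.20 with 1 library left out, its call being lost without replicate 1, 2, 3 or 4 (adjusted p 0.052 to 0.075). Ina was 0.62 against mechanoreceptor-like wells, where its call was lost (adjusted p = 0.072). Prph was 0.055 with no filter on low counts, −0.52 with the 300 CPM gate, −0.34 with the mitochondrial limit, −0.45 against nociceptor-like wells, −0.37 without the unclassed wells and −0.25 to 0.029 with 1 library left out.

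For the e15.5 subtypes 1083 genes were called with no filter on low counts, 251 in sums of at least 10 wells (1 Gabrg1-high library, assumed to vary like the others, against 4), 371 with the mitochondrial limit and 247 to 581 with 1 library left out (247 without replicate 8). In those sums Nefl was 0.53 and Prph 0.46, neither past the threshold, and Ina 0.057. Ina was 0.040 without wells under 2% mitochondrial counts and −0.070 to 0.027 with 1 library left out. For the p1 subtypes 461 genes were called with no filter, 212 with the 300 CPM gate, 340 in sums of at least 10 wells, 221 without wells rich in glia genes, 2 with the replicate block and 29 to 202 with 1 library left out (29 without replicate 2, 42 without replicate 5, 46 without replicate 6, 202 without replicate 1). There Nefl passed at 0.70 with DESeq2, 0.88 in sums of at least 10 wells and 1.18 without wells rich in glia genes. Nefm passed at 0.86 with DESeq2 and with no filter, 0.89 with the 300 CPM gate, 1.10 and 1.42 in the last 2 of those settings, and was 0.72 to 0.95 with 1 library left out. Nefh passed at 0.69 and 0.86 in those 2 settings. The floor of 100000 UMIs, scaling by library totals, the 2% limit, the UMI correction, the well left out and the removal of unclassed wells were chosen after seeing the data. The causes were not tested. Depth limits Nefh most, with a median of 18 UMIs in an e15.5 well.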
